A study of Mus musculus with 8 samples.

Results

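The gene described here is 1 of the 33050 genes that RSEM listed in each of the 8 samples of this series. The files identify genes by a running number and pair none with a symbol. Gene 30096's only listed transcript is uc009pbl.1, of 1735 bases, and the gene is called by this transcript here. It was chosen with its own values in view, namely its expected counts and TPM in CD122hi against CD122lo cells and its rank by TPM, so these values are given as a description and without a test. The cells were Vγ7+ intraepithelial lymphocytes (IELs) of C57Bl/6J mouse pups, sorted at postnatal day 14 to 17 from the small intestinal epithelium of 2 to 3 pooled litters per preparation. Each of 4 preparations, numbered 2, 3, 5 and 8, gave a CD122hi and a CD122lo sample of about 10000 to 20000 cells, so that there were 4 samples of each population and the comparison was made within preparations. The labels name no mutation, transgene or agent in either group, and the sort by CD122 is the only labelled difference between them. Each sample is a pool of mice, so a value is no measure of a single animal.

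IELs are T cells that lie between the cells of the gut lining. Many of them carry a γδ T cell receptor, and in the mouse small intestine the Vγ7 chain marks a large share of these. CD122 is the β chain of the receptors for IL-2 and IL-15, cytokines that support the survival and growth of lymphocytes. The study set CD122hi cells, taken as mature, against CD122lo cells, taken as their likely progenitors. What uc009pbl.1 encodes was not established here, and no role is given for it. The reference tables used here held 0 of the 63336 transcript names in the files, so markers of T cells, of other immune cells and of epithelium were not analysed here, and the labelled cell type was not checked against them.

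Expected counts summed to between 19267478 and 34060340 per sample, and in each preparation the CD122hi library was the larger. The 12 pairs of samples within a population were all distinct libraries, with a chi-square per gene of at least 27.8, over genes with at least 10 counts in the pair, where repeat counts of 1 library would give about 1. Expected counts are the fragments that RSEM assigns to a gene. For uc009pbl.1 they were whole numbers in all 8 samples, as for 71.4% of the 13313 genes with a mean TPM above 1, called detected genes here. A fractional count arises where fragments are shared out between genes.

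The gene uc009pbl.1 was counted in every sample, and more often in the CD122lo sample of each preparation. In CD122hi samples of preparations 2, 3, 5 and 8 it had 465, 427, 489 and 425 fragments. In the CD122lo samples it had 2768, 1518, 8282 and 7675 fragments. The smallest CD122lo count was thus above the largest CD122hi count, although the CD122hi libraries were deeper. Exact 95% Poisson intervals, which cover counting error only, ran from 386 to 467 for the lowest CD122hi count and from 1443 to 1596 for the lowest CD122lo count.

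TPM divides counts by gene length and scales them to one sum per sample, which allows a gene to be set against others. The gene uc009pbl.1 stood at 18.86, 12.81, 22.10 and 13.63 TPM in the CD122hi samples of preparations 2, 3, 5 and 8, with a mean of 16.9 ± 4.41 (SD, n = 4). In the CD122lo samples it stood at 127.61, 80.83, 468.67 and 268.66 TPM, with a mean of 236 ± 174 (SD, n = 4). The populations did not overlap, and the lowest CD122lo value was 3.66 times the highest CD122hi value. Among the CD122hi samples the highest TPM was 1.73 times the lowest, and among the CD122lo samples 5.80 times. In a bulk sample, more cells that transcribe a gene and more RNA of it per cell cannot be told apart.

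**Figure D1:**
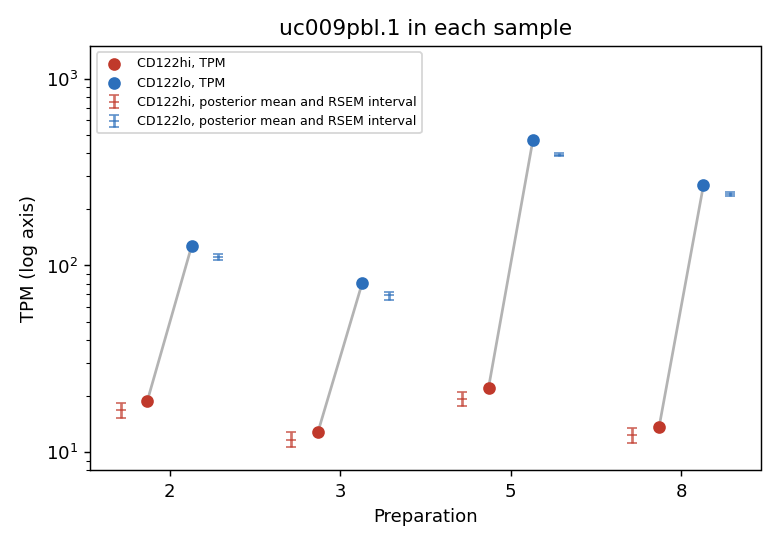
TPM of uc009pbl.1 (log axis) in the CD122hi (red) and CD122lo (blue) sample of each preparation. Grey lines join the samples of a preparation, and the dashes with bars beside the points are RSEM's posterior mean TPM with its interval. All CD122lo points, from 80.83 to 468.67, lie above all CD122hi points, from 12.81 to 22.10.

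RSEM also gives a posterior mean TPM with an interval, which covers counting and the assignment of fragments and not the difference between mice. The posterior means were lower than the TPM values, at 15.0 ± 3.61 in CD122hi and 204 ± 146 in CD122lo samples (SD, n = 4), and the intervals lie around these means rather than around TPM. In order of level, the CD122lo samples of preparations 5, 8, 2 and 3 came first, with intervals from 384 to 401, 236 to 247, 107 to 116 and 65.5 to 72.5 TPM. None of these overlapped its neighbour. The CD122hi samples followed in the order 5, 2, 8 and 3. There the intervals of preparations 5 and 2, from 17.6 to 21.0 and from 15.2 to 18.3, overlapped, and so did those of preparations 8 and 3, from 11.2 to 13.5 and from 10.6 to 12.8.

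The effective length of uc009pbl.1, by which RSEM divides its counts, lay between 1581 and 1596 bases over the samples. This spread of 0.938% compares with a median of 2.09% among detected genes.

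The place of uc009pbl.1 among all genes differed between the populations. Ranked by TPM from the highest, it was gene 5672, 7595, 5474 and 6863 in the CD122hi samples of preparations 2, 3, 5 and 8. In the CD122lo samples it was gene 912, 1604, 257 and 436. Of the genes with a TPM above 1 in a sample, from 43.9% to 57.6% stood above it in CD122hi samples, which is near the middle of the genes detected there. From 1.93% to 12.2% stood above it in CD122lo samples. The median rank was 6267.5 in CD122hi and 674 in CD122lo samples. With 1 preparation left out the CD122lo median was 436 without preparation 2 or 3 and 912 without preparation 5 or 8. Ranked by expected count, which is not divided by length, the medians were 7644.5 and 1035.

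**Figure D2:**
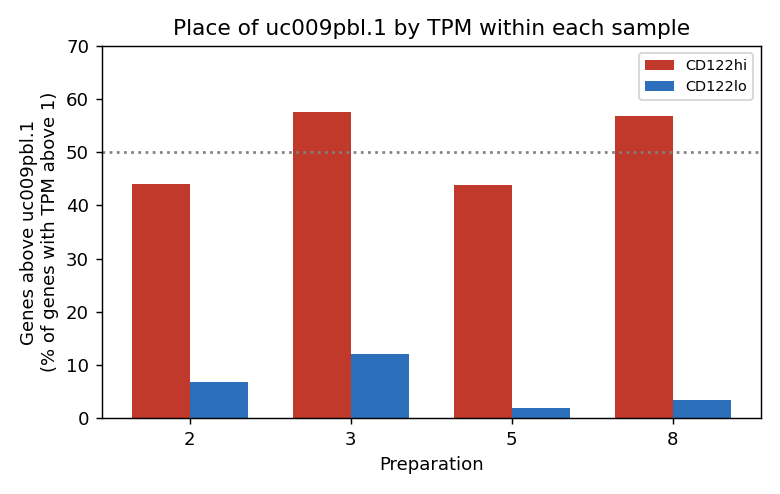
Share of the genes with a TPM above 1 that had a higher TPM than uc009pbl.1, in the CD122hi (red) and CD122lo (blue) sample of each preparation, with a dotted line at the middle of the genes. Bars lie between 43.9% and 57.6% in CD122hi samples and between 1.93% and 12.2% in CD122lo samples.

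Counts were then scaled by edgeR's TMM factors and compared within preparations on the log2 CPM scale with a prior count of 2. The paired differences, CD122hi minus CD122lo, were -2.59, -2.76, -4.24 and -4.20 in preparations 2, 3, 5 and 8. All 4 thus had one direction. Over all detected genes these differences had an SD of 0.621, 0.647, 1.16 and 0.938, with medians between -0.04 and 0.01. The log2 fold change that edgeR fitted with the preparation as a block was -3.46, with a standard error of 0.45 from the paired differences, which corresponds to a level 10.98 times higher in CD122lo cells. Normalized CPM averaged 17.4 ± 4.87 in CD122hi and 216 ± 133 in CD122lo samples (SD, n = 4).

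Among the 13313 detected genes, 23.9% were lower in the CD122hi sample of every preparation, as uc009pbl.1 was. A further 24.3% were higher in the CD122hi sample of every preparation. Every CD122hi sample lay below every CD122lo sample for 3.18% of them. A difference of at least 2 on the log2 scale in every preparation, a limit set after the values of uc009pbl.1 were seen, was met by 33 genes (0.248%). The gene was picked from this contrast, so its place in these classes is no finding.

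The gene uc009pbl.1 combined a large difference with a high level. Both were in view when it was chosen, so its place among other genes by them is no finding. A lower fitted log2 fold change was found for 109 genes, or 0.819% of those detected. Their median level in CD122lo samples was 7.58 TPM, against the 236 TPM of uc009pbl.1, and only 2 of them stood as high as uc009pbl.1 or higher there. In all, 492 genes had at least its mean TPM in CD122lo cells. Within a 2-fold range of its CD122lo level there were 797 genes, with a median log2 fold change of 0.08. Within a 2-fold range of its CD122hi level there were 5010 genes, with a median of 0.01, and 3 of them had a lower log2 fold change than uc009pbl.1.

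**Figure D3:**
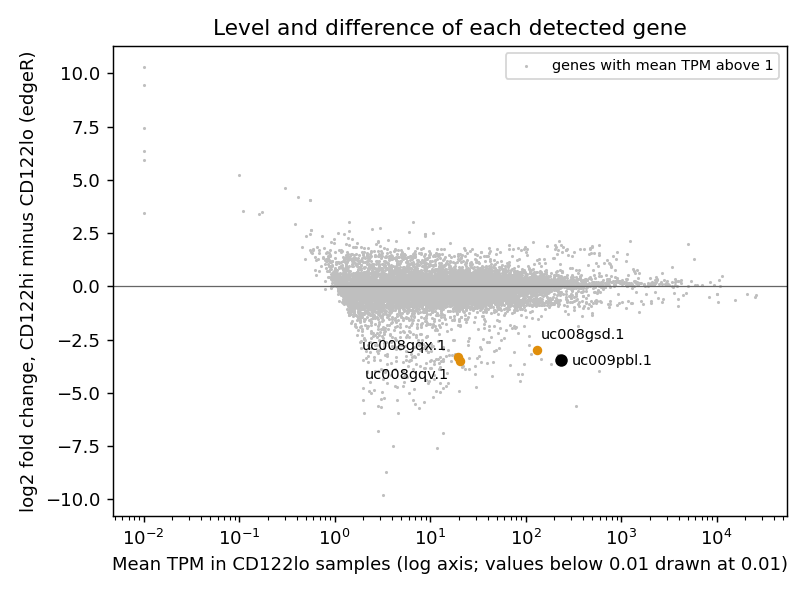
Mean TPM in CD122lo samples (log axis) against the log2 fold change, CD122hi minus CD122lo, that edgeR fitted for each of the 13313 detected genes (grey). The gene uc009pbl.1 (black), chosen with its level and difference in view, lies at 236 TPM and -3.46, below nearly all genes of its level. The 3 genes most like it are in orange.

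Most of the variation of uc009pbl.1 over the 8 samples lay between the populations. With the sum of squares of log2 CPM split by source, population took 88.4%, preparation 7.08% and the remainder, in which preparations differ in the size of the difference, 4.47%. For the median detected gene population took 9.46%, preparation 75.1% and the remainder 7.85%, each share being a median of its own. A larger share for population was held by 0.135% of detected genes. The gene was picked from the contrast of the populations, so its large share for population is no finding.

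**Figure D4:**
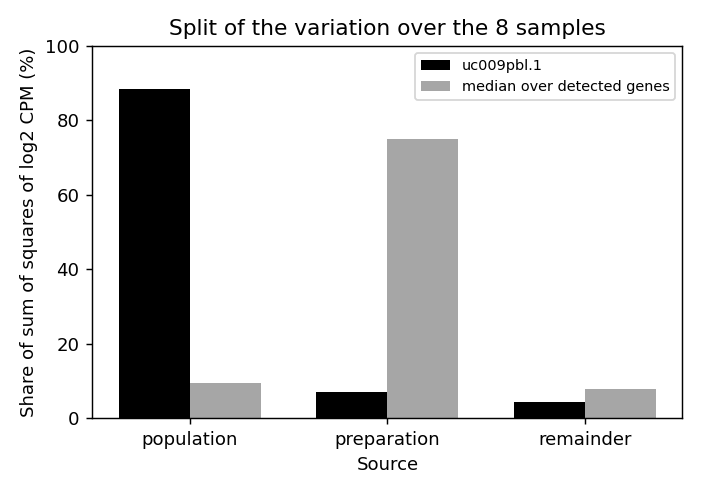
Share of the sum of squares of log2 CPM over the 8 samples that fell to population, preparation and the remainder, for uc009pbl.1 (black) and as the median of each share over the 13313 detected genes (grey). Population took 88.4% for uc009pbl.1, which was picked from the contrast of the populations, and 9.46% for the median gene.

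The size of the difference varied with the preparation. In preparations 2 and 3 alone the fitted log2 fold change was -2.68, a level 6.40 times higher in CD122lo cells, and in preparations 5 and 8 alone it was -4.23, or 18.7 times higher. This split was chosen after the values were seen, with earlier results of these data known, and the labels name no batch for it. The wider differences in preparations 5 and 8 were not particular to uc009pbl.1. Over all detected genes the paired differences had an SD of 1.16 and 0.938 there, against 0.621 and 0.647 in preparations 2 and 3. A lower paired difference than that of uc009pbl.1 was found for 0.240%, 0.315%, 1.78% and 1.16% of detected genes in preparations 2, 3, 5 and 8. The first principal component over all detected genes, computed after the split was made, held 69.0% of the variance and placed all samples of preparations 2 and 3 on one side and those of preparations 5 and 8 on the other. On that component the CD122hi samples were split as the CD122lo samples were. For uc009pbl.1 itself, the difference between preparations 2 and 3 and preparations 5 and 8 lay mainly in the CD122lo samples. Its CD122lo mean was 104 TPM in preparations 2 and 3 and 369 TPM in preparations 5 and 8, a ratio of 3.54. The CD122hi means were 15.8 and 17.9 TPM, a ratio of 1.13. Whether the preparations differ in age, in the cells that the CD122lo gate held or in handling was not tested. The paired differences had an SD of 0.90 for uc009pbl.1 against a median of 0.247 over detected genes, and 7.83% of genes had a larger one. On the log2 CPM scale the SD of uc009pbl.1 was 0.41 among CD122hi and 0.93 among CD122lo samples, against medians over genes of 0.33 and 0.44.

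The genes with the most similar pattern were sought by Pearson's r of log2 CPM with uc009pbl.1 over the 8 samples. These samples form 4 pairs from the same mice in 2 populations, and r is given as a description. It reached 0.95 for 85 genes, or 0.639% of detected genes. All 85 were lower in CD122hi cells in every preparation, with log2 fold changes from -9.79 to -0.52 and a median of -2.84. A gene that follows this pattern has to be lower in CD122hi cells, so this count adds nothing to the contrast. At a limit of 0.9 on either side, 224 genes had r of 0.9 or above and 42 had r of -0.9 or below. Of the 85 genes, 1 had a mean TPM in CD122lo cells at or above that of uc009pbl.1, and their median was 12.1 TPM.

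uc008gsd.1, named by the first of its 3 transcripts, was most like uc009pbl.1, with r = 0.997 and Spearman's rho of 1, so the 8 samples came in the same order for both. It stood at 14.73, 9.84, 17.03 and 11.81 TPM in the CD122hi samples of preparations 2, 3, 5 and 8 and at 88.61, 43.50, 243.85 and 155.97 TPM in the CD122lo samples. Its log2 fold change was -2.998, with a standard error of 0.38. uc008gqv.1, a gene with 1 listed transcript, had r = 0.992. It was much less abundant, at 1.39 ± 0.553 TPM in CD122hi and 20.7 ± 15.8 TPM in CD122lo samples (SD, n = 4). Its log2 fold change was -3.52 (SE 0.63). The gene uc008gqx.1, named likewise by the first of 3, had r = 0.992 and stood at 1.52 ± 0.637 TPM in CD122hi and 19.4 ± 14.4 TPM in CD122lo samples (SD, n = 4). In all of them the CD122lo sample of preparation 5 was the highest of the 8, followed by those of preparations 8, 2 and 3. Counts of genes uc008gqv.1 and uc008gqx.1 were whole in all samples, and those of gene uc008gsd.1 were not.

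**Figure D5:**
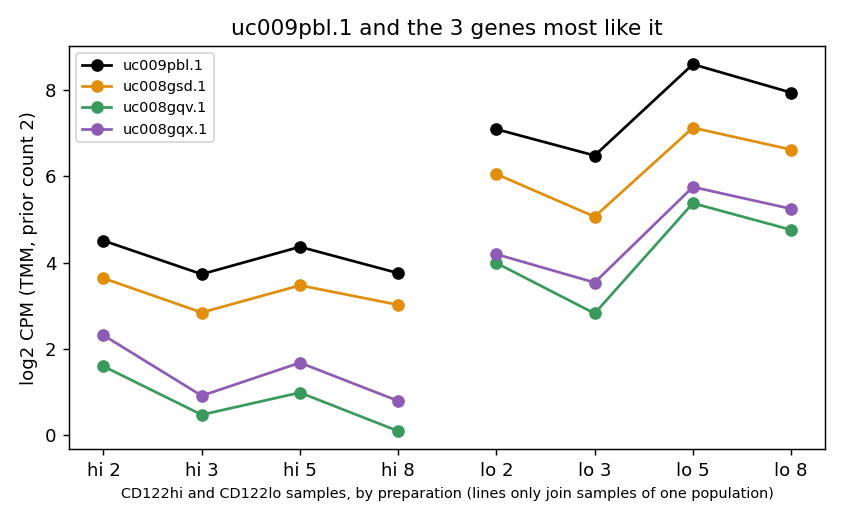
Log2 CPM of uc009pbl.1 (black) and of genes uc008gsd.1, uc008gqv.1 and uc008gqx.1 in the CD122hi and CD122lo samples of preparations 2, 3, 5 and 8. All of them are lowest in CD122hi cells and peak in the CD122lo sample of preparation 5, at a log2 CPM of 8.61 for uc009pbl.1.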

How the data were processed

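Paired-end reads of ribosome-depleted total RNA (KAPA stranded kit) had been aligned with Bowtie2 2.1.0 and quantified with RSEM 1.2.11 by the authors, on transcripts of mm10 and UCSC knownGene. The submitters' processing notes list hg19 as the build, and no coordinates are given here. The authors deposited expected counts and TPM for each gene and sample, with lengths and RSEM's interval of TPM, whose level is not given in the sources used here.

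Expected counts were rounded. Genes with a mean TPM above 1 were kept, normalized by TMM and fitted with edgeR 4.0.16 (quasi-likelihood) in R 4.3.3, modelling preparation plus population. The edgeR fit was checked for its median recovery of known fold changes in simulated counts. These counts held no difference between preparations, unlike the data. Depth was 19267478 to 34060340 counts per sample. Both populations came from the same mice, and deviations from population means correlated within preparations (Pearson's r across genes from 0.624 to 0.843). No such r was computed between different preparations, so these values cannot show that the likeness is particular to a pair. For uc009pbl.1 the deviations of CD122hi and CD122lo samples had opposite signs in preparations 2 (0.42 and -0.44) and 8 (-0.34 and 0.41). They had like signs in preparations 3 and 5. The gene uc009pbl.1 was chosen with earlier results of these data known, so it gets no p-value. The named genes are uc009pbl.1 and the 3 with the highest r. Alternatives used DESeq2 1.42.0, limma-voom 3.58.1, other scaling, filters, units and fewer preparations. The study's own test was DESeq2 on the pairs. Raw reads were not analysed here.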

Additional observations from a re-analysis of the deposited data

How the results depend on the processing

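The direction of uc009pbl.1 held under all 17 alternatives of the fold change, 3 of which were added after the values were seen. On the log2 CPM scale the lowest CD122lo sample lay 1.98 above the highest CD122hi sample. A reversal was therefore hardly possible, and the count of 17 adds no support. The log2 fold change of uc009pbl.1 was -3.63 without the replicate block, -3.51 by DESeq2, -3.56 by limma-voom and -3.40 on posterior mean TPM. In all, 11 alternatives of tool, block, scaling, filter, length and unit lay between -3.63 and -3.40. With 1 preparation left out it ranged from -3.74 to -3.18. Over all detected genes the median moved to -0.06 with RLE factors. Mean TPM in CD122lo samples ranged from 159 to 288 with 1 preparation left out, the lowest without preparation 5. The median rank in CD122hi samples was 7644.5 by expected count and 6267.5 by TPM, which is divided by gene length. The share of genes lower in CD122hi in every preparation was 16.9% to 28.9% under other scaling, filter or unit, and its count 3646 to 4020 with 1 preparation left out, where fewer preparations have to match. Genes uc008gsd.1, uc008gqv.1 and uc008gqx.1 stayed among the 100 most alike in all 8 alternatives with r or rho of at least 0.976, but between 0 and 3 of them were the first 3, with 0 when preparation means were subtracted.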

Other observations

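The 3 genes most like uc009pbl.1 have numbers close to each other in the files, from 14517 to 14540. This was noticed after their values were seen. The run of 24 numbers is bounded by these genes, so no count over it is read as a result. What the order of the numbers stands for is not given in the sources used here.

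Within 12 numbers on either side of uc009pbl.1 there were 8 other detected genes, with r from -0.762 to 0.178 and log2 fold changes, CD122hi minus CD122lo, from -0.91 to 1.37. Of these, 5 were lower in CD122hi cells in every preparation, against 23.9% of all detected genes, and 2 were higher in every preparation, against 24.3%. With 8 genes, nothing is read from these counts.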
